A study of Mus musculus with 23 samples.

Results

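Subcutaneous white fat and hypothalamus of vehicle-treated C57BL/6 mice, an inbred laboratory strain, were compared gene by gene. The libraries were the 6 vehicle libraries made from these tissues, 3 of fat (M1, M2 and M4) and 3 of hypothalamus (M1, M2 and M4), of 23 in the series. The series studied cachexia, a wasting state, under the platinum drug oxaliplatin, and the 6 libraries come from its control mice, whose tissues were taken after 8 weeks of dosing. The labels give vehicle as the only treatment of these mice and give no genetic change, and their age is not stated there. Mouse numbers are those of the library titles, and the labels do not say that the same number in fat and hypothalamus is the same animal. Genes were joined on the symbol: 22868 symbols stood in both count tables of 29457 in either, and 19564 had enough counts to be tested.

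White fat stores triglyceride in adipocytes, which take up fatty acids and glucose when fed, release fatty acids when fasted, and secrete leptin in proportion to their store. The hypothalamus, at the base of the brain, reads leptin and other signals of energy state through neurons that make peptides such as Agrp, Pomc and orexin, and it acts back on fat through sympathetic nerves and pituitary hormones. A whole-tissue library also holds RNA of vessels, glia, immune cells and connective tissue, and in such bulk samples fewer cells of a type and less RNA per cell cannot be told apart.

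Levels are given as CPM, the counts of a gene relative to the library total, scaled by the trimmed mean of M values (TMM), and are given in the order M1, M2, M4. Differences are log2 of fat over hypothalamus ± SE, so a positive value is a gene higher in fat, with p-values from edgeR's quasi-likelihood test adjusted by Benjamini-Hochberg over all 19564 genes. A gene passed the test at an adjusted p below 0.05. CPM are not divided by transcript length, so levels are compared between libraries and not between genes.

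Libraries of both tissues showed their own cell types, and some stood apart. Total counts were 16.9 to 22.7 M (mega counts) in fat and 27.3 to 28.5 M in hypothalamus, which limits precision most for genes with few counts. Levels of a list were summed over the members that the tissue's own table held, 22 in fat and 21 in hypothalamus for the adipocyte list. The summed level of the adipocyte list was 47390, 37450 and 36566 CPM in fat against 64.8 to 70.5 CPM in hypothalamus. The summed level of the neuron list was 13575, 14294 and 14303 CPM in hypothalamus against 111, 132 and 343 CPM in fat. Fat M4 also carried skeletal muscle RNA: the muscle fibre list summed to 126673 CPM there, to 1252 CPM in fat M1 and to 21.8 CPM in fat M2, against 26.3 to 36.0 CPM in hypothalamus. Fat M2 had the keratins of simple epithelium, with Krt18 at 0.0588, 18.1 and 0.0509 CPM over fat M1, M2 and M4 and Krt19 at 0.647, 25.4 and 0.968 CPM. Fat M1 had more of the basal keratin Krt5, listed in the fat table alone at 38.5, 8.66 and 0 CPM, and the whole epithelium list summed to 72.1, 115 and 10.2 CPM. Hypothalamus M1 had more of several long non-coding RNAs. Among them were Meg3 at 1303, 248 and 206 CPM, Malat1 at 2602, 958 and 885 CPM and Neat1 at 72.6, 17.2 and 13.3 CPM. Markers of other forebrain regions (cortex, thalamus and striatum) also had a higher sum in hypothalamus M1, 181 CPM against 93.9 and 114 CPM. This was mostly through Prkcd at 87.2, 11.5 and 27.3 CPM and Slc17a7 at 27.9, 2.22 and 7.82 CPM. Pituitary genes summed to 3.28 to 9.95 CPM in hypothalamus, with growth hormone (Gh) at 0, 0 and 0.0381 CPM. Choroid plexus genes summed to 37.2 to 43.6 CPM there, with transthyretin (Ttr) at 4.93, 1.15 and 0.915 CPM. Most of the choroid plexus sum thus came from other genes of its list. The part of these cells in the results below was not tested beyond leaving the libraries out.

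**Figure D1:**
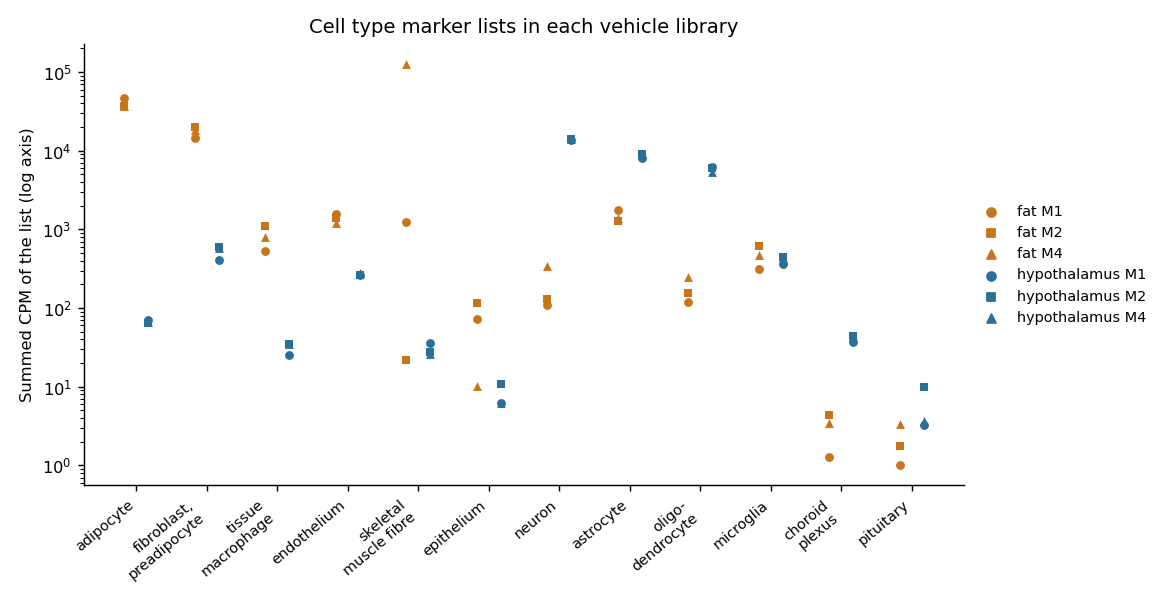
Summed CPM (log axis) of 12 lists of cell type markers in each of the 6 vehicle libraries, with fat in orange, hypothalamus in blue and the symbol giving the mouse number. Adipocyte and neuron lists separate the tissues in every library, and fat M4 stands apart for skeletal muscle at 126673 CPM.

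Of the 19564 genes tested, 14032 (71.7%) passed the test, so a difference between these tissues was the usual state of a gene. In all, 7336 genes (37.5% of those tested) were higher in fat and 6696 (34.2%) higher in hypothalamus. At 4-fold or more, 3627 genes (18.5%) were higher in fat and 2587 (13.2%) higher in hypothalamus. The median difference over all genes was 0.07, the median size of a difference 1.12, and the 10th and 90th percentiles -2.71 and 3.18. The 3 fat libraries did not overlap the 3 hypothalamus libraries for 15170 genes (77.5%). The split of calls depended on the scaling: with upper quartile factors in place of TMM, 8759 genes were higher in fat and 5326 higher in hypothalamus, that is, 62.19% of calls in fat against 52.28%, and the median difference moved by 0.29. The direction of a gene that differs by less than that shift depends on the scaling. Tissue and deposited table cannot be told apart here, since each tissue has its own table.

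**Figure D2:**
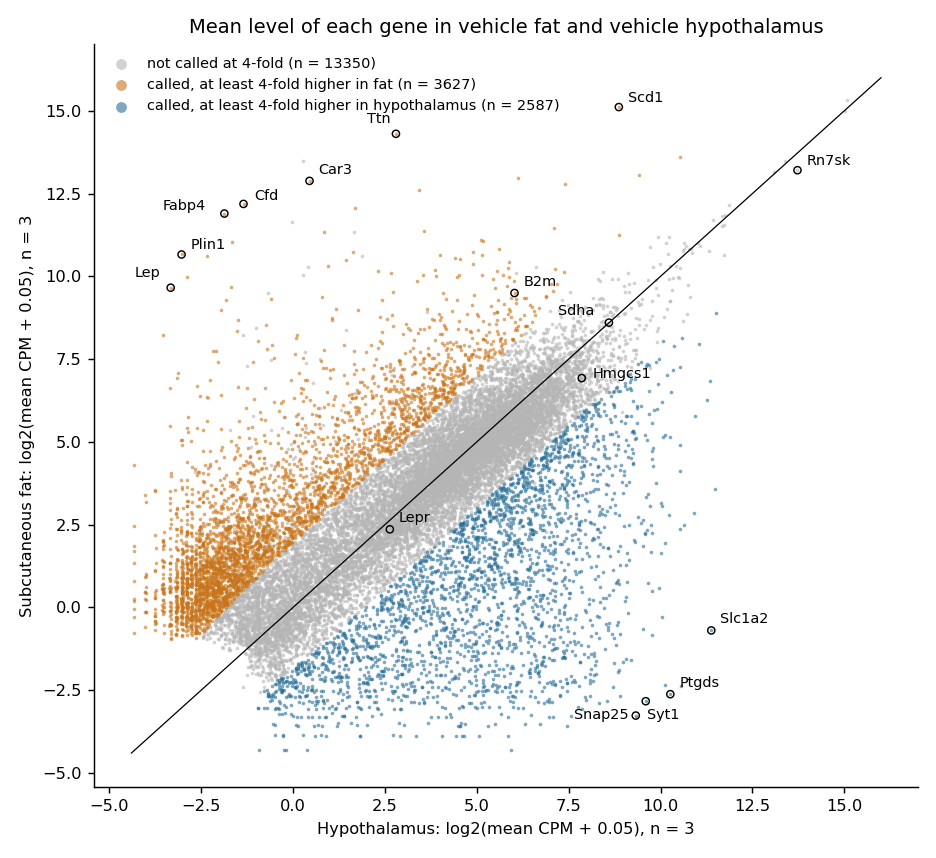
Mean CPM of each of the 19564 genes in vehicle hypothalamus (x axis) and vehicle fat (y axis), both as log2 after adding 0.05, n = 3 libraries each, with genes called at 4-fold or more in color and the line of equal level. Lep, Plin1 and Fabp4 lie at the upper left and Snap25, Syt1 and Ptgds at the lower right, while Sdha and Lepr lie near the line.

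The largest differences towards fat were lipid storage and secreted products of the adipocyte. Plin1, the perilipin that coats the adipocyte lipid droplet (chr7:79720218-79732903 on GRCm38, minus strand), stood at 1980, 1545 and 1330 CPM in fat and at 0.105, 0.111 and 0 CPM in hypothalamus, a difference of 14.33 ± 0.58 (adjusted p = 9.91e-07). Lep, which encodes leptin (chr6:29060220-29073877, plus strand), stood at 800, 813 and 810 CPM in fat and at 0, 0.148 and 0 CPM in hypothalamus, a difference of 13.86 ± 0.69 (adjusted p = 4.38e-06). The fat libraries agreed closely for Lep, and no library of either gene overlapped the other tissue. Also among the 12 largest were Fabp4, the adipocyte fatty acid binding protein (14.04 ± 1.12), Cfd, the complement protease adipsin (13.71 ± 0.76), Adipoq, adiponectin (13.43 ± 0.60), Cidec, a droplet fusion protein (13.33 ± 0.66) and Pck1, which feeds glycerol synthesis (12.90 ± 0.89). Car3, a carbonic anhydrase abundant in fat (12.49 ± 0.40), Cyp2e1, an ethanol-oxidizing cytochrome P450 (11.61 ± 0.47), Hp, haptoglobin (11.34 ± 0.41) and Dpt, the matrix protein dermatopontin (11.22 ± 0.42) belonged to them too. The sizes rest on a few counts in hypothalamus. Retn, resistin, had 3 counts over all hypothalamus libraries, a ratio of 8128 with a 95% counting interval of 2781 to 39418. Lep had 4 counts, all in hypothalamus M2, and without that library its hypothalamus level was 0. Without it the fitted differences of Adipoq (14.52), Cfd (14.73), Cidec (14.64), Fabp4 (15.53), Pck1 (13.93), Retn (13.60) and Dpt (11.88) were larger, with all of these still passing. Without hypothalamus M1, those of Fabp4 (13.42) and Lep (13.26) were smaller and still passed.

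The start of Lep is shown because it is a promoter of one of these genes that holds a binding motif of C/EBP, a family of factors that drives adipocyte differentiation. The 78 bases lie upstream of the start and come from RefSeq (GRCm38.p6), chr6:29060131-29060208, plus strand, 5′ to 3′, with the motif TTGCGCAA in capitals, 55 to 48 bases before the RefSeq start.
Lep: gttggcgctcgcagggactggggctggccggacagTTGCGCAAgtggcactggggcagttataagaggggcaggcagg
These 8 letters were searched on both strands in the promoters of the 12416 tested genes that had an entry, and 40 of these genes (0.322%) held them. Among the 15 adipocyte genes with an entry, Lep was the only 1 with a match, and Lep levels do not bear on whether the site is bound.

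The largest differences towards hypothalamus were genes of vesicle release, astrocyte transport and peptide processing. Syt1, synaptotagmin 1, the calcium sensor of transmitter release (chr10:108497650-109010982 on GRCm38, minus strand), stood at 664, 632 and 630 CPM in hypothalamus and at 0.0588, 0.0515 and 0.0509 CPM in fat, 1 count in each fat library. Its ratio was 12000 with a 95% counting interval of 4106 to 58193 (adjusted p = 6.43e-08). Snap25, a SNARE protein of the synapse, stood at 888, 698 and 739 CPM in hypothalamus and at 0.118, 0 and 0.153 CPM in fat (-13.00 ± 0.49). Ccdc184, a coiled-coil gene, had no count in fat and 52.5, 67.0 and 62.3 CPM in hypothalamus. Its 95% counting interval began at a ratio of 918, and a floor of 3 counts over the fat group would give 1129. Slc1a2 and Slc6a11 take up glutamate and GABA into astrocytes. Slc1a2 stood at 2603, 2620 and 2784 CPM in hypothalamus and at 0.882, 0.361 and 0.459 CPM in fat (-12.20 ± 0.38), and Slc6a11 differed by -12.86 ± 0.59. Pcsk1n, which inhibits a prohormone convertase, stood at 1283, 1640 and 1614 CPM against 0.118, 0.103 and 0.204 CPM (-13.32 ± 0.29). Vgf, a neuropeptide precursor, stood at 259, 417 and 437 CPM against 0.118, 0.0515 and 0.102 CPM (-11.94 ± 0.37), lowest in hypothalamus M1. Ptgds, the prostaglandin D synthase of brain and meninges, stood at 815, 1522 and 1358 CPM against 0.235, 0 and 0.102 CPM (-13.41 ± 0.70). The neuronal transcription factor Myt1l had 2 counts in fat, with a ratio of 4939 and an interval of 1367 to 40787. Ptprn2, a dense-core vesicle protein, differed by -11.74 ± 0.39 and Unc80, a subunit of a sodium leak channel, by -12.04 ± 0.50. Without fat M4, Snap25, Ptprn2 and Unc80 moved to -13.66, -12.40 and -12.96, and without fat M1 Ptgds moved to -14.42.

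**Figure D3:**
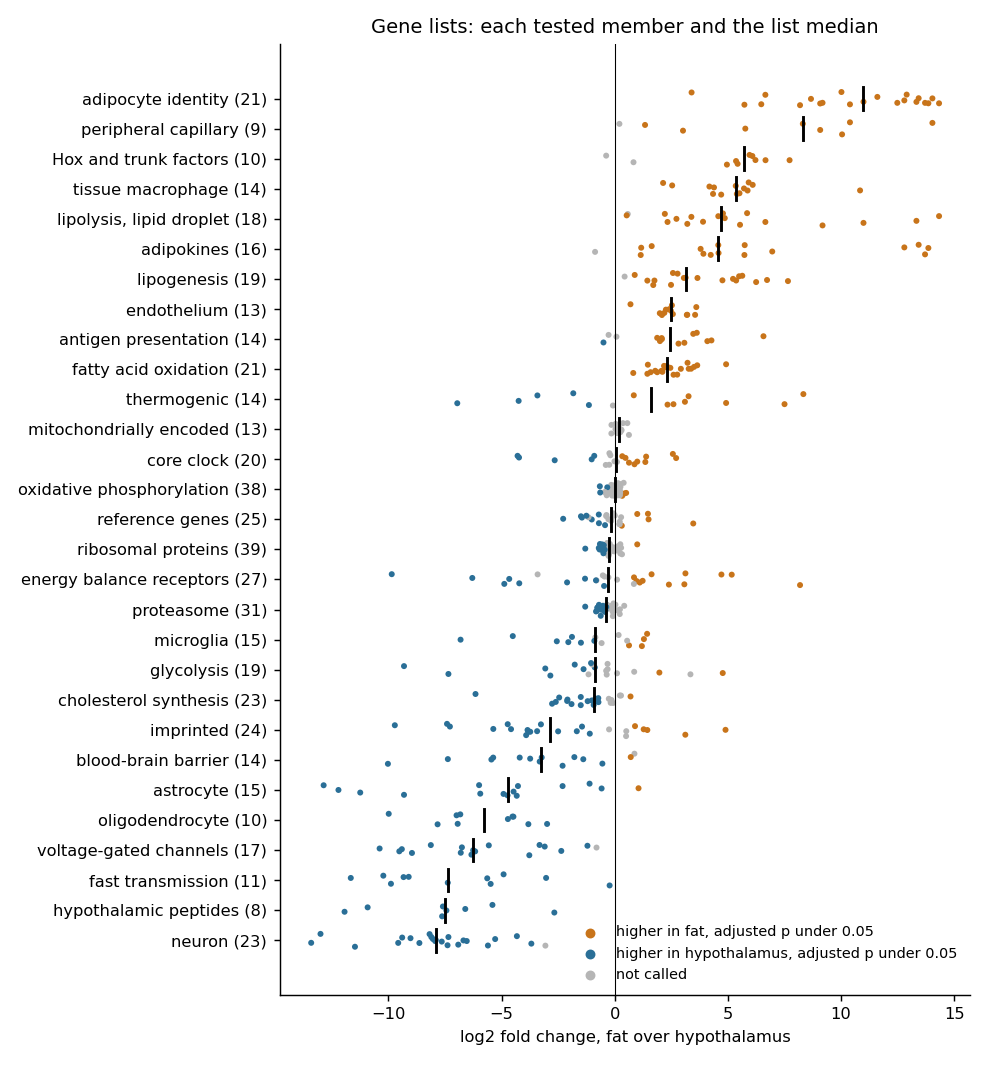
Difference between tissues (x axis, log2 of fat over hypothalamus) for each tested member of 29 gene lists, 1 point a gene, colored by the test, with a bar at the list median and the number tested in brackets. Medians run from -7.90 for the neuron list to 10.99 for adipocyte identity, with oxidative phosphorylation at 0.01.

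The genes that make, store and release fat were almost all higher in fat tissue. All 21 tested adipocyte identity genes passed towards fat, with a median difference of 10.99, against 37.5% of all genes and an overall median of 0.07. Of 19 lipogenesis genes 18 passed towards fat and none towards hypothalamus (median 3.13), and of 18 lipolysis and lipid droplet genes 17 passed towards fat (median 4.68). Scd1, the stearoyl-CoA desaturase of liver and fat, stood at 62001, 20092 and 24334 CPM in fat and at 434, 495 and 470 CPM in hypothalamus (6.25 ± 0.52, adjusted p = 3.19e-05). Fasn, fatty acid synthase, stood at 13704, 7054 and 4850 CPM in fat and at 599, 718 and 713 CPM in hypothalamus (3.66 ± 0.40). Fat M1 was the highest fat library for both, and without it Scd1 differed by 5.57. Lpl, the lipase that frees fatty acids from plasma triglyceride, stood at 5866, 3702 and 3340 CPM against 3.11, 3.22 and 3.24 CPM (10.40 ± 0.33). The lipases of stored fat were also higher in fat tissue, Pnpla2 by 5.85 ± 0.21 and Lipe by 6.66 ± 0.22. Dgat2, which makes triglyceride, differed by 5.50 ± 0.18.

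Fatty acid oxidation followed the same direction, although white fat is known for storing lipid. All 21 genes passed towards fat, with a median of 2.30 and a range of 0.82 to 4.92. Acadm, the medium-chain acyl-CoA dehydrogenase, stood at 286, 216 and 222 CPM in fat and at 24.2, 23.9 and 26.9 CPM in hypothalamus (3.27 ± 0.14). Hadh, of the same spiral, differed by 3.38 ± 0.23. Cpt1a, which admits fatty acids to mitochondria, stood at 70.4, 79.5 and 77.1 CPM against 38.4, 44.2 and 45.9 CPM (0.82 ± 0.11, adjusted p = 0.000266), the smallest difference of the list. Cpt1b, its muscle form, had the largest.

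Cholesterol synthesis ran the other way from fatty acid synthesis, although SREBP factors are known to act on both. Of 23 genes, 15 passed towards hypothalamus (34.2% of all genes did) and 1 towards fat, with a median of -0.93. Upper quartile factors gave 14 towards hypothalamus and 3 towards fat, with a median of -0.64. The list also holds Srebf2 and Cyp46a1, described below, which are not enzymes of synthesis. Hmgcs1, which makes HMG-CoA early in the pathway, stood at 106, 118 and 141 CPM against 235, 224 and 236 CPM (-0.93 ± 0.13), with no overlap between the tissues. Sqle, which opens the sterol branch, differed by -2.60, and Srebf2, the factor that drives these genes, by -2.10 ± 0.16. Cyp46a1, the neuronal enzyme that turns cholesterol into a form that leaves the brain, differed by -6.15. Sc5d was the exception, at 108, 124 and 113 CPM in fat against 73.7, 67.5 and 71.1 CPM (0.70 ± 0.09).

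The promoter of Hmgcs1 is shown because it holds the 9 letters TCACCCCAC, a sterol regulatory element. The window is RefSeq, GRCm38.p6, chr13:119690179-119690257, plus strand, with the element 137 to 129 bases before the start in capitals.
Hmgcs1: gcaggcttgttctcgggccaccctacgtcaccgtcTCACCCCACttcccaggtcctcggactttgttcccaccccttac
On both strands together, 82 of the 12416 genes with a promoter entry (0.660%) held these letters, genes higher in either tissue among them.

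Secreted adipokines were mostly higher in fat. Receptors of energy balance that both tables held passed in either direction about as often as genes in general. Of 16 tested adipokines 15 passed towards fat (median 4.58). Beyond Lep, Cfd, Adipoq and Retn, the growth factors Nrg4 and Igf1, the chemokine Ccl2 and the lipase inhibitor Angptl4 differed by 6.96, 4.58, 5.74 and 5.73. Apln, apelin, did not pass (-0.87, adjusted p = 0.0927), but DESeq2 (adjusted p = 0.0349) and limma-voom (0.0212) called it lower in fat, as did edgeR without fat M1 (-1.47). Of 27 tested receptors of energy balance, 11 passed towards fat and 9 towards hypothalamus (37.5% and 34.2% of all genes did), with a median of -0.28 that became 0.02 with upper quartile factors. With genes of either table, at 0 where not listed, 11 of 36 receptors passed towards fat and 18 towards hypothalamus (median -0.82). Of all 20914 genes there, 7979 passed towards fat and 7454 towards hypothalamus. Adrb3, the beta-adrenergic receptor through which sympathetic nerves start lipolysis, stood at 343, 299 and 267 CPM in fat and at 1.36, 0.962 and 0.763 CPM in hypothalamus (8.19 ± 0.26). Ghr, the growth hormone receptor, stood at 524, 753 and 644 CPM against 17, 18.1 and 18.2 CPM (5.17 ± 0.17). Insr, the insulin receptor, stood at 279, 244 and 248 CPM against 85.3, 79.7 and 83.9 CPM (1.63 ± 0.10), whereas Igf1r, its relative, passed the other way (-0.83 ± 0.10). Both had libraries that did not overlap. The thyrotropin receptor Tshr (4.72 ± 0.15), the adiponectin receptor Adipor2 (3.13 ± 0.15), the estrogen receptor Esr1 (2.40 ± 0.12) and the glucocorticoid receptor Nr3c1 (0.97 ± 0.10) were higher in fat. The thyroid hormone receptor Thra was higher in hypothalamus (-2.10 ± 0.12).

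The leptin receptor did not pass in either direction. Lepr, chosen after its values were seen, stood at 5.23, 5.21 and 4.79 CPM in fat and at 5.52, 5.96 and 6.98 CPM in hypothalamus. The hypothalamus libraries were all higher, but the difference of -0.28 ± 0.17 did not pass (adjusted p = 0.172) and its 95% interval ran from -0.67 to 0.12. With upper quartile factors it was 0.02, so the direction depends on the scaling. The counts were of the whole gene, so the long signaling form and the short forms were not separated. Glp1r, the receptor of glucagon-like peptide 1, had 1 count in fat and a ratio of 1197, with an interval of 215 to 47307. A further 9 receptors were listed in the hypothalamus table and not in the fat table. The calcitonin receptor Calcr stood there at 18.1, 24.9 and 21.3 CPM, the ghrelin receptor Ghsr at 10.6, 7.36 and 11.2 CPM, and the melanocortin receptors Mc3r at 5.52, 5.55 and 7.82 CPM and Mc4r at 2.10, 2.55 and 2.59 CPM.

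Peptides of the hypothalamus were present in all 3 hypothalamus libraries and near 0 or not listed in fat. All 26 on the list stood in the hypothalamus table, 17 of them in that table alone, and the 8 tested all passed towards hypothalamus (median -7.51). Summed over the peptides that each table held, 26 and 9, the level was 1543, 2083 and 1867 CPM in hypothalamus against 9.05, 15.9 and 18.2 CPM in fat. Most of the fat sum was Penk. Avp, vasopressin, stood at 228, 402 and 328 CPM and Oxt, oxytocin, at 119, 318 and 181 CPM, both lowest in hypothalamus M1. Pmch, melanin-concentrating hormone of the lateral hypothalamus, stood at 249, 92.7 and 96.8 CPM and was highest in M1, whereas Hcrt, orexin, from the same region, stood at 132, 164 and 154 CPM. Pomc, the melanocortin precursor of the arcuate nucleus, stood at 21.1, 33.1 and 40.3 CPM against 0.118, 0.361 and 0.459 CPM in fat (-6.60 ± 0.43). Cartpt, which many of the same neurons make, stood at 107, 55.8 and 75.8 CPM with 2 counts in fat, a ratio of 2243 with an interval of 621 to 18526. Peptides of different nuclei did not rank the 3 libraries alike. Trh stood at 43.7, 104 and 73.2 CPM, Npy at 11.1, 13.4 and 15.9 CPM, Crh at 1.96, 3.48 and 2.71 CPM, Vip at 4.79, 7.44 and 6.83 CPM and Kiss1 at 0.245, 0.259 and 0.153 CPM. Penk, preproenkephalin, was the exception in fat, at 8.29, 14.8 and 16.9 CPM there against 70.1, 93.7 and 90.6 CPM (-2.67 ± 0.27).

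Most genes of electrical signaling were higher in hypothalamus. Of 23 tested neuron genes 22 passed towards hypothalamus (median -7.90) and the remaining gene, Camk2a, a synaptic kinase, stood at 473, 517 and 504 CPM there and at 2.0, 1.08 and 176 CPM in fat (adjusted p = 0.233). Fat M4 was the high one, the library with muscle RNA, and without it all 23 passed. All 11 tested genes of fast transmission passed (median -7.37), or 10 with upper quartile factors, library totals, a minimum of 1 CPM or any library but fat M4 left out, and 9 more stood in the hypothalamus table alone, such as the GABA-making enzyme Gad2 at 317, 387 and 359 CPM and the glutamate transporter Slc17a6 at 259, 221 and 250 CPM. Grin1, the shared NMDA receptor subunit, stood at 350, 366 and 359 CPM against 0.235, 0.567 and 0.306 CPM (-9.88 ± 0.27). Of 17 voltage-gated channels 16 passed (median -6.25), among them the sodium channel Scn2a at 375, 385 and 384 CPM against 2.65, 3.45 and 4.13 CPM (-6.80 ± 0.19). The fast potassium channel Kcnc1 stood at 293, 262 and 270 CPM against 0.941, 0.412 and 16 CPM (-5.56 ± 1.51, adjusted p = 0.0245). Fat M4 set its spread, and without it Kcnc1 differed by -8.70, while 4 alternatives lost the call.

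Glia gave the same direction with exceptions. Of 15 astrocyte genes 14 passed towards hypothalamus (median -4.73), while Aldh1l1, a folate enzyme and a common astrocyte marker, was higher in fat, at 157, 131 and 137 CPM against 63.4, 71.9 and 69.5 CPM (1.05 ± 0.11, adjusted p = 7.58e-05). Glul, glutamine synthetase, stood at 1229, 814 and 895 CPM in fat against 1379, 1456 and 1551 CPM, a small difference (-0.58 ± 0.18) that lost its call in 4 alternative analyses. All 10 tested oligodendrocyte genes passed (median -5.77). Mbp, present in all myelin, stood at 79.3, 93.7 and 172 CPM in fat. Of 8 tested tanycyte and ependymal genes 6 passed towards hypothalamus, and the intermediate filaments Vim (3.87 ± 0.18) and Nes (1.4 ± 0.14) passed towards fat.

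Factors that silence or splice neuronal transcripts differed in both directions. Rest, which represses neuronal genes outside the nervous system (chr5:77265491-77286432, plus strand), stood at 52.7, 45.8 and 50 CPM in fat and at 14.3, 15.6 and 16 CPM in hypothalamus (1.70 ± 0.10, adjusted p = 4.43e-06). The splicing repressor Ptbp1 stood at 117, 143 and 105 CPM against 32.9, 39.4 and 38.8 CPM (1.72 ± 0.14), and its neuronal relative Ptbp2 at 31.0, 26.2 and 26.8 CPM against 76.9, 69.8 and 79.0 CPM (-1.43 ± 0.11). Each of these groups was free of overlap. Mbnl1 (1.54 ± 0.15) was also higher in fat, and the neuronal RNA-binding proteins Celf4 (-7.64 ± 0.26) and Elavl3 (-8.03 ± 0.22) were far lower. Over the list, 5 of 21 passed towards fat and 14 towards hypothalamus (median -1.86), against 37.5% and 34.2% of all genes.

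The 9 letters TTCAGCACC begin the RE1 element to which REST binds, and 3 promoters that hold them are shown for genes that were higher in hypothalamus. Celsr3 and Dner, like Syn1, were chosen after their values were seen. The windows are RefSeq, GRCm38.p6: Syn1 is chrX:20921107-20921168, minus strand, Celsr3 is chr9:108825883-108825961, plus strand, and Dner is chr1:84696328-84696406, minus strand, each read 5′ to 3′ on the gene's strand with the 9 letters in capitals.
Syn1: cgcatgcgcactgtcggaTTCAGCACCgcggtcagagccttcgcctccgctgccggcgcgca
Celsr3: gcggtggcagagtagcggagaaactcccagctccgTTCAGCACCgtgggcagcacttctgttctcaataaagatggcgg
Dner: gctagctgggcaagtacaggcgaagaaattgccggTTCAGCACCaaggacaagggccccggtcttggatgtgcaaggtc
Syn1, synapsin 1 of synaptic vesicles, stood at 395, 474 and 467 CPM in hypothalamus and at 1.41, 1.34 and 2.09 CPM in fat (-8.10 ± 0.23). Celsr3, an adhesion receptor of axon guidance, stood at 104, 81.1 and 73.3 CPM against 1.88, 3.14 and 3.82 CPM (-4.86 ± 0.28). Dner, a transmembrane protein of neurons, stood at 255, 317 and 316 CPM against 0.176, 0.515 and 0.0509 CPM (-10.18 ± 0.51). On either strand, 60 of the 12416 genes with a promoter entry (0.483%) held the letters. These included genes higher in fat, such as Il6ra (3.28) and Slc27a1 (2.36). A search for the longer RE1 motif found it in 1 of the 12416 genes (0.0081%). Levels of Syn1, Celsr3 and Dner do not bear on whether REST binds at them. Shares of motifs were not compared between genes higher in fat and genes higher in hypothalamus, because promoter entries covered them unequally. Of those called at 4-fold or more, 46.29% and 71.59% had an entry.

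Genes of position in the body separated the tissues by the table that listed them. All 30 Hox and trunk factors stood in the fat table and 20 of them in that table alone, whereas all 25 hypothalamic factors stood in the hypothalamus table and 15 in that table alone. Hox genes mark the body axis behind the forebrain: Hoxc8 stood at 59.1, 57.4 and 43.7 CPM in fat, Hoxc6 at 37.6, 40.3 and 38.8 CPM and Hoxc10 at 21.9, 20.5 and 45.9 CPM. Of the 10 tested, 8 passed towards fat (median 5.69), such as Hoxc4 at 10.8, 14.3 and 12.8 CPM against 0.524, 0.370 and 0.305 CPM (4.96 ± 0.25). In hypothalamus, Otp, a factor of neuroendocrine neurons, stood at 42.0, 84.0 and 58.5 CPM, Six3 at 27.4, 44.2 and 34.5 CPM and Nkx2-1 at 24.8, 29.6 and 30.8 CPM. Of 10 tested hypothalamic factors 7 passed towards hypothalamus and 2 towards fat. Arnt2, the partner of Sim1, stood at 340, 349 and 342 CPM against 0.706, 1.13 and 1.63 CPM (-8.20 ± 0.29). Lhx8 went the other way, at 4.06, 4.90 and 6.62 CPM in fat against 0.245, 0.444 and 0.267 CPM (4.01 ± 0.34). So did Lhx6, which lost its call in 4 alternatives.

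Imprinted genes, expressed from 1 parental copy, were mostly higher in hypothalamus. Of 24 tested, 16 passed towards hypothalamus and 5 towards fat, against 34.2% and 37.5% of all genes. Their median of -2.88 was -1.92 without hypothalamus M1, the library high in Meg3. Ndn, of the Prader-Willi region, and Peg3, a zinc finger gene, stood at 663, 882 and 839 CPM and at 1382, 1485 and 1546 CPM in hypothalamus, and differed by -4.58 ± 0.17 and -3.26 ± 0.16. Nap1l5 stood at 869, 853 and 867 CPM against 4.41, 7.01 and 5.20 CPM (-7.28 ± 0.22). Dlk1, which holds back adipocyte differentiation and serves as a preadipocyte marker, was lower in fat as well (-7.41). The growth suppressors Cdkn1c (1.44 ± 0.25) and Igf2r (1.28 ± 0.11) and the antisense RNA Kcnq1ot1 (3.12 ± 0.30) were higher in fat. H19 stood at 2.76, 1.86 and 39.7 CPM in fat and differed by 4.90, or by 2.20 without fat M4, and lost its call in 5 alternatives. Meg3 differed by -3.43 ± 0.88 (adjusted p = 0.0173). Among other nuclear long RNAs, Malat1 stood at 11348, 12732 and 12997 CPM in fat against the values above in hypothalamus (3.06 ± 0.45, or 3.72 without hypothalamus M1), and Neat1 at 2171, 2089 and 2353 CPM against 72.6, 17.2 and 13.3 CPM (6.00 ± 0.83). Neat1 was chosen after its values were seen.

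Vessel genes went both ways by the kind of vessel they mark. All 13 general endothelial genes passed towards fat (median 2.48), with Cdh5, the junction cadherin, at 327, 243 and 214 CPM against 19.8, 22.2 and 22.4 CPM (3.61 ± 0.18). Against that direction, 12 of 14 genes of the blood-brain barrier passed towards hypothalamus (median -3.27). Slc2a1, the glucose transporter of the barrier, stood at 13, 14 and 13.9 CPM in fat and at 123, 125 and 135 CPM in hypothalamus (-3.22 ± 0.10). Slc7a5, which carries large neutral amino acids, differed by -4.20 ± 0.14. Astrocytes and neurons also express some of these transporters. Of 9 genes of capillaries outside the brain, 8 passed towards fat (median 8.31), among them the water channel Aqp1 (10.05 ± 0.62) and the fatty acid carrier Cd36 (9.08 ± 0.31), and adipocytes express Cd36, Lpl and Fabp4 of that list too. Abcg2, an efflux pump placed on the barrier list, was higher in fat (0.71 ± 0.14).

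Resident immune cells differed in kind. All 14 tested genes of tissue macrophages passed towards fat (median 5.37), such as Mrc1, the mannose receptor, at 73.1, 165 and 118 CPM against 4.86, 5.96 and 6.18 CPM (4.39 ± 0.32), and in each of Mrc1, F13a1, Lyz2 and Retnla fat M2 was the highest fat library. Microglia genes passed in both directions: 7 of 15 towards hypothalamus and 4 towards fat, against 34.2% and 37.5% of all genes. Cx3cr1, the fractalkine receptor, stood at 33.3, 41.8 and 36.3 CPM in hypothalamus against 1.23, 2.53 and 1.12 CPM (-4.50 ± 0.31). The complement genes C1qa (1.20 ± 0.30), C1qb (1.29 ± 0.32) and C1qc (1.43 ± 0.25), which macrophages of both tissues express, were higher in fat. Csf1r, the receptor for their growth factor, passed by a small margin (0.63 ± 0.22, adjusted p = 0.0318) and lost the call in 5 alternatives. Presentation of peptides on class I molecules was higher in fat for 11 of 14 genes (median 2.45), with H2-K1 at 586, 617 and 490 CPM against 25.7, 33.4 and 28.3 CPM (4.28 ± 0.16). The hemoglobin genes Hba-a1, Hba-a2, Hbb-bs and Hbb-bt, a measure of blood left in the tissue, did not pass by edgeR, DESeq2 or limma-voom, and 0 had an unadjusted p below 0.05. Their direction turned with the scaling, Hbb-bs from -0.18 to 0.12 with upper quartile factors. Hbb-bs stood at 293, 212 and 207 CPM in fat and at 318, 259 and 230 CPM in hypothalamus. Alas2, on the same list of red cell genes, lay on the side of fat (0.34) and did not pass by edgeR (adjusted p = 0.14). It passed towards fat with upper quartile factors (0.63) and without hypothalamus M1 (0.51).

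Many enzymes and transport proteins exist as a widely expressed or fat-type form and a brain-type form. Of 30 such pairs listed from textbook knowledge, 28 had both members tested. In 19 pairs the fat-type member passed towards fat and the brain-type member towards hypothalamus, and in 5 pairs both passed towards hypothalamus. Over the alternatives without a replicate term these counts were 17 to 19 and 4 to 7. The log2 ratio of the members was higher in every fat library than in every hypothalamus library for all 28, with a median change between tissues of 6.50 and a range of 1.05 to 14.5. The pairs were chosen for this contrast, so their direction is a description. The ratio is not corrected for length, and only its change between tissues is read.

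Glucose uptake gives the plainest case. Slc2a4, the insulin-responsive transporter GLUT4, stood at 208, 163 and 254 CPM in fat and at 3.91, 4.00 and 3.85 CPM in hypothalamus (5.73 ± 0.20). Slc2a3, the neuronal GLUT3, stood at 9.17, 9.79 and 18.1 CPM against 95.5, 95.8 and 94.6 CPM (-2.94 ± 0.27). Their log2 ratio was 4.49, 4.05 and 3.80 in fat and -4.58, -4.55 and -4.59 in hypothalamus, so the hypothalamus libraries agreed more closely than the fat libraries. The next step turned over as well, with Hk2, the insulin-induced hexokinase, higher in fat (4.77 ± 0.35) and Hk1 higher in hypothalamus (-3.07 ± 0.14). Scd1 and Scd2, desaturases of liver and fat and of brain, crossed in the same way: Scd2 stood at 606, 400 and 413 CPM in fat against 2725, 2982 and 2962 CPM (-2.61 ± 0.20). In membrane fusion, Snap23 stood at 27.3, 28.2 and 28.6 CPM in fat against 6.43, 4.77 and 6.10 CPM (2.28 ± 0.14) while Snap25 ran the other way, the largest change of ratio (14.5). The vesicle SNAREs Vamp8 (2.0 ± 0.16) and Vamp2 (-3.27 ± 0.11) gave the same crossing. In signaling, the protein kinase A subunit Prkar2b was higher in fat (3.39 ± 0.20) and its relative Prkar1b higher in hypothalamus (-7.34 ± 0.15).

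Other pairs shifted without a crossing. Elavl1, a widely expressed RNA-binding protein, was itself higher in hypothalamus (-0.87 ± 0.10), but the neuronal Elavl3 by far more (-8.03 ± 0.22). The enolases Eno1 and Eno2 differed likewise by -0.88 ± 0.19 and -7.35 ± 0.23. Pfkl and Pfkp had the smallest change of ratio (1.05), with Pfkl not passing (adjusted p = 0.105). Some pairs of either kind depended on fat M4, the library with muscle RNA. Aldoa stood at 897, 594 and 4688 CPM in fat against 1018, 1207 and 1175 CPM, did not pass (0.86 ± 0.82), and was -0.62 without that library. Acsl6, of a pair that crossed, stood at 0.0588, 0.0515 and 7.95 CPM in fat against 235, 234 and 236 CPM, differing by -6.43 ± 1.69, or by -11.94 without fat M4, and 3 alternatives lost the call. Adrb1, at 19, 7.83 and 30 CPM in fat against 11.7, 9.40 and 10.5 CPM, was the only brain-type member that did not pass.

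**Figure D4:**
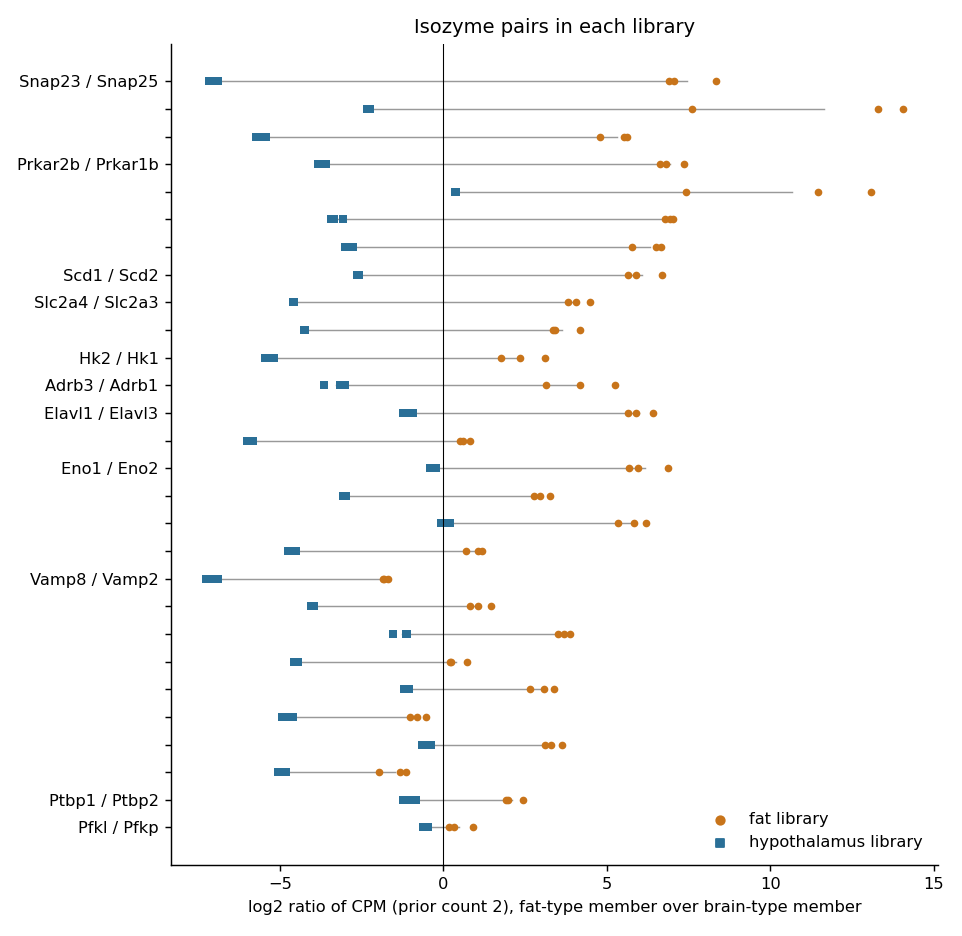
Log2 ratio of the fat-type over the brain-type member (x axis, CPM with a prior count of 2) in each library for 28 pairs, fat as orange circles and hypothalamus as blue squares, sorted by the change between tissues, with a line joining the tissue means and names for pairs given in the text. In all 28 pairs the 3 fat libraries lie to the right of the 3 hypothalamus libraries, from a change of 1.05 for Pfkl over Pfkp to 14.5 for Snap23 over Snap25.

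Nuclear genes of oxidative phosphorylation were more alike between the tissues under TMM. Of 38 nuclear genes of oxidative phosphorylation 3 passed towards fat and 3 towards hypothalamus (37.5% and 34.2% of all genes), with a median of 0.01, and 26 had a 95% interval within 1.5-fold of equality, against 10.9% of all genes. Sdha, of complex II, stood at 445, 325 and 395 CPM in fat and at 370, 398 and 393 CPM in hypothalamus (0.01 ± 0.14), and Uqcrc1, of complex III, at 190, 148 and 230 CPM against 189, 193 and 186 CPM. Fat libraries spread more widely than hypothalamus libraries for both, and the tissues overlapped. These calls moved with the processing: upper quartile factors gave 17 of 38 towards fat and 12 within 1.5-fold, leaving out fat M2 gave 7 towards fat, leaving out fat M4 gave 8 towards hypothalamus, and leaving out fat M1 or any hypothalamus library gave 1 towards fat. None of the 13 mitochondrially encoded genes passed by edgeR with TMM, and 0 had an unadjusted p below 0.05, while limma-voom called 0 and DESeq2 called 2 towards fat, as did edgeR with upper quartile factors and with library totals. The gene mt-Co1 stood at 14589, 6900 and 12561 CPM in fat against 10447, 10650 and 10880 CPM. Fat M2 was low for it, and without that library 7 of 13 passed towards fat.

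Glycolysis could not be read without regard to muscle RNA. Of 19 genes 8 passed towards hypothalamus and 2 towards fat (Hk2 and Ldha), against 34.2% and 37.5% of all genes. Without fat M4 15 passed towards hypothalamus. Gapdh stood at 459, 329 and 2197 CPM in fat against 1173, 1397 and 1304 CPM, a difference of -0.38 ± 0.76 that was -1.73 without fat M4. Pkm moved from -1.0 to -1.99 and Pgk1 from -1.16 to -1.93.

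Genes of protein synthesis and breakdown had small median differences, on the side of hypothalamus under TMM. With that scaling, proteasome genes passed towards hypothalamus more often than genes in general. Of all genes, 34.2% passed towards hypothalamus, 37.5% passed towards fat and 10.9% lay within 1.5-fold. Of 39 ribosomal protein genes 11 passed towards hypothalamus and 1, Rplp0, towards fat, with a median of -0.25 and 19 within 1.5-fold. Rpl3 stood at 172, 216 and 169 CPM in fat against 426, 482 and 462 CPM (-1.30 ± 0.13). Of 31 proteasome genes 16 passed towards hypothalamus and none towards fat (median -0.38, 11 within 1.5-fold), with Psmc5 at 40, 38.2 and 50.5 CPM against 104, 109 and 104 CPM (-1.30 ± 0.13). With upper quartile factors the ribosomal median turned to 0.05 with 11 towards fat and 4 towards hypothalamus, and the proteasome median became -0.08 with 6 and 9. Without fat M4 or without fat M2, 18 and 17 ribosomal genes passed towards hypothalamus, and without fat M1 4 passed towards fat. With each library left out in turn, 13 to 22 proteasome genes passed towards hypothalamus, with 22 without fat M4 (median -0.49). DESeq2 called 19 ribosomal genes towards hypothalamus.

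The clock genes passed about as often as genes in general. Of 20, 9 passed towards fat and 5 towards hypothalamus, against 37.5% and 34.2% of all genes (median 0.04, or 0.33 with upper quartile factors). The output factor Dbp stood at 284, 232 and 268 CPM in fat against 114, 136 and 143 CPM (1.0 ± 0.13), and Per3 (2.57 ± 0.21) and the repressor Nr1d1 (1.39 ± 0.20) were also higher in fat. Arntl, the activator, stood at 1.12, 3.20 and 3.36 CPM in fat against 16.7, 16.5 and 15.4 CPM (-2.65 ± 0.36), and its partner Npas2 differed by -4.23 ± 0.18. Fat M1 was lowest for Arntl. The time of day at which tissue was taken is not given in the labels, so these values hold for that unknown time.

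Thermogenic genes did not form a group. Of 14 tested, 8 passed towards fat and 5 towards hypothalamus (37.5% and 34.2% of all genes did), with a median of 1.59. Cox8b, of brown and beige fat and of muscle, stood at 49.8, 27.0 and 70.6 CPM in fat against 0.175, 0.0740 and 0.191 CPM (8.34 ± 0.54), and Ebf2, a factor of brown precursors, differed by 3.26 ± 0.10. Ppargc1a, the coactivator of mitochondrial genes, was higher in hypothalamus, at 59.9, 49.6 and 56.1 CPM against 12.2, 15.4 and 18.9 CPM (-1.83 ± 0.17). Ucp1, the uncoupling protein, was listed in the fat table alone at 3.76, 0.361 and 6.01 CPM, with fat M2 low.

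Genes that are often used to normalize between samples were not all alike in these tissues. Of 25 such genes 13 passed, 5 towards fat and 8 towards hypothalamus, against 71.7% of all genes, and 8 lay within 1.5-fold, against 10.9%. B2m stood at 780, 734 and 653 CPM in fat and at 54.1, 74.0 and 67.3 CPM in hypothalamus (3.47 ± 0.16), the largest difference of the list. Ywhaz stood at 167, 172 and 155 CPM against 763, 810 and 818 CPM (-2.28 ± 0.11), and Hprt at 29.8, 28.2 and 25.5 CPM against 66.1, 65.5 and 67.1 CPM (-1.25 ± 0.09). These 3 kept their direction and their call under every scaling tried. Gusb (1.5 ± 0.11) was higher in fat and Tuba1a (-1.49 ± 0.14), Canx (-1.45 ± 0.12) and Ppia (-0.70 ± 0.11) lower. Polr2a passed narrowly (0.31 ± 0.11, adjusted p = 0.0355) and lost the call in 9 alternatives. Sdha, Psmb2 (-0.05 ± 0.11) and Tbp (0.21 ± 0.12) were among those near equality under TMM. With upper quartile factors 9 passed towards fat and 7 towards hypothalamus.

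**Figure D5:**
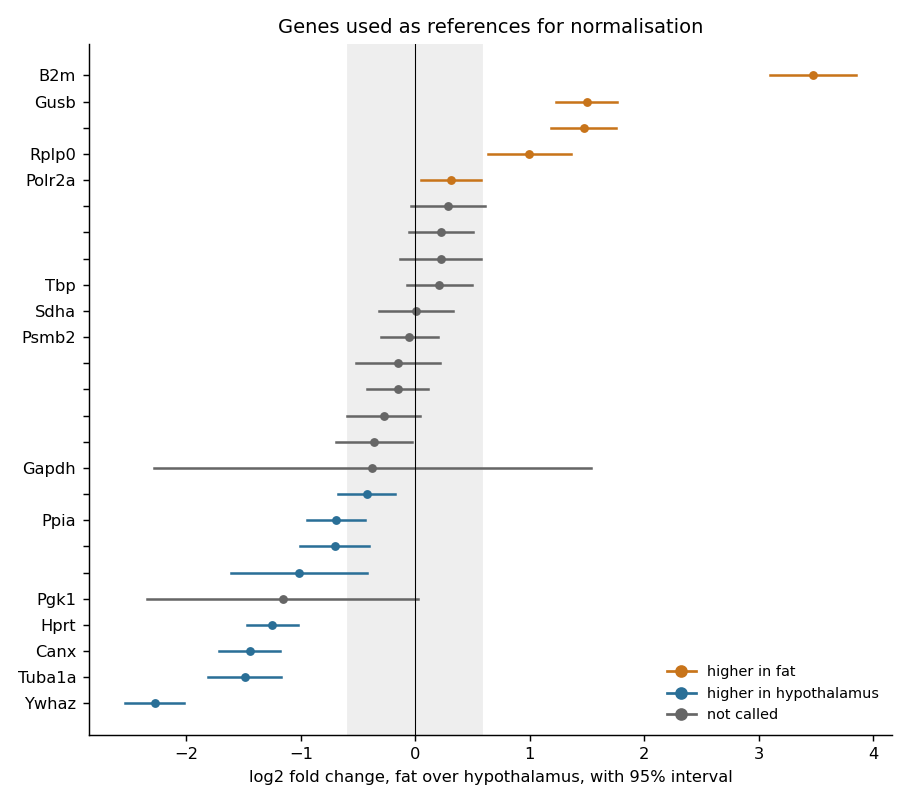
Difference between tissues (x axis, log2 of fat over hypothalamus, with 95% interval) for 25 genes often used for normalization, colored by the test and with names for those given in the text, the range within 1.5-fold shaded. B2m at 3.47 and Ywhaz at -2.28 lie outside the shaded range, and the interval of Gapdh is the widest.

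The genes closest to equality at 50 CPM or more in both tissues belong to general cell functions. Tm9sf3, of the Golgi, stood at 179, 178 and 147 CPM in fat against 175, 158 and 169 CPM, with a difference of 0.00 ± 0.11, and Uqcrc1, Cox6b1, Arl5a, Hectd3, Phf2, Ubr3 and Ubxn1 were chosen by the same rule. The rule took the smallest differences, so their closeness is no finding, and Hectd3 was 0.30 with upper quartile factors. Short non-coding RNAs took a large share of counts in both tissues: Rn7s1, a 7SL RNA of the signal recognition particle, stood at 45016, 33353 and 45829 CPM in fat against 28508, 42068 and 33784 CPM. Rn7sk, 7SK RNA, was slightly higher in hypothalamus (-0.52 ± 0.16), a call lost in 4 alternatives.

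Genes listed in a single table were mostly rare. The fat table held 3834 symbols that the hypothalamus table did not, 47 of them at 10 CPM or more, and the hypothalamus table held 2755, of which 230 reached 10 CPM. Among those in fat were muscle genes carried by fat M4, such as the troponin Tnnc2 at 11.5, 0.773 and 1464 CPM. Of the others, Gpihbp1, the endothelial anchor of Lpl, stood at 82.0, 54.9 and 48.5 CPM in fat. In hypothalamus, Scg2, a granin of secretory vesicles, stood at 592, 746 and 778 CPM, Mobp, a myelin protein, at 759, 698 and 638 CPM and Gria1, an AMPA receptor subunit, at 444, 526 and 505 CPM. These genes were not among the 19564 tested. In an alternative that set a gene to 0 in the table that did not list it, 22 of 22 hypothalamic peptides passed towards hypothalamus and 27 of 29 Hox and trunk factors towards fat.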

How the data were processed

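RNA of 3 vehicle fat and 3 vehicle hypothalamus samples was extracted with a magnetic bead kit and sequenced after RiboErase library preparation, which depletes ribosomal RNA, per the labels' protocols. The muscle libraries of the series, made with another kit, and all oxaliplatin libraries were not used here. The authors deposited 1 table of expected counts per gene for each tissue, 41.4% of values in fat and 49.1% in hypothalamus not being whole, and each row sums to at least 10 over its table. Per the submitters' processing notes STAR 2.5.1a, Partek and DESeq2 were used, without their roles. No source used here names the genome build. Of the identifiers found in GENCODE M21 (GRCm38), 99.455% in the fat table and 99.432% in the hypothalamus table had the start listed there, so positions are on GRCm38, with the first base as 1.

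Since the values were not whole, they were rounded before any test. Tables were joined on the symbol (22868, all with equal identifiers, 51 rows of each table carrying joined identifiers). Genes were kept by edgeR 4.0.16 filterByExpr (minimum count 10, minimum total 15), scaled by TMM and tested by the quasi-likelihood F test with robust dispersion in R 4.3.3, fat against hypothalamus, on the 6 libraries alone. The SE is the difference divided by the square root of F, and 95% intervals follow from it. Counting intervals and the floor of 3 counts cover counting error only. The labels do not say outright that the 3 samples of a tissue are separate animals, and p-values measure the spread between these samples, which may be technical. No 2 replicates agreed within sampling noise (chi-square over degrees of freedom of 7.15 or more). Alternatives used DESeq2 1.42.0, limma-voom (limma 3.58.1), other scalings, filters and joins, a replicate block and each library left out. The script was tested on simulated data.

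The comparison, the 42 gene lists, the 30 pairs and the motifs were chosen with earlier results of these data known. Genes named were, per direction, the 12 largest differences with at least 50 CPM in the higher tissue and no overlap, gene models without a proper name left out; per list, the 4 members highest in the favoured tissue and up to 6 called the other way; all pairs and reference genes; the 8 nearest to equality; the 10 highest in each tissue; and peptides and adipokines listed in a single table. Some genes that this rule names are not reported here. Other list members, and other genes of a single table, were named after their values were seen. Promoters (250 bases before to 50 after the start) were matched to RefSeq by symbol for 12416 of 19564 tested genes.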

Additional observations from a re-analysis of the deposited data

How the results depend on the processing

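The counts of genes called in each direction, at any size and at 4-fold or more, stayed within 1.5 times the reported counts under all alternatives. Genes higher in fat numbered 6538 to 8759 and genes higher in hypothalamus 5326 to 7454, with upper quartile factors giving 8759 and 5326. DESeq2 called 13989 genes, limma-voom 14295, library totals without factors 13230, no filter 14453 of 22868, and genes of either table, with 0 where not listed, gave 15433 of 20914. The count of genes within 1.5-fold was 2132, and with each library left out 1407 to 2136, lowest without hypothalamus M4; the cause was not tested. Same-numbered fat and hypothalamus libraries deviated from their means with correlations of 0.041, 0.011 and 0.028. Differently numbered libraries gave lower values, from -0.029 to 0.0044. All of these are small, and whether the numbers pair the libraries was not tested. With the replicate block 13424 genes were called, 13281 of them shared with the 14032 called without it. The block called Apln towards hypothalamus, 10 of 11 genes of fast transmission and 18 crossing pairs. Each left-out library gave 12758 to 14717 called genes. Without fat M4, 13520 of the 14032 calls were kept and 1197 genes gained. With fat M4 and hypothalamus M1 both left out, an alternative chosen after seeing the data, 14400 were called. Isozyme pairs had a positive change in 28 of 28 under every alternative, with a median of 6.38 to 6.66. Of 238 named genes called, 214 kept the call wherever a value was given. The log2 fold change of Krt18 ran from -5.36 without fat M2 to 1.94 without fat M4, and was -2.16 by limma-voom, and that of Krt8 ran from -3.32 to 3.34 likewise. Aldoa ran from -0.62 without fat M4 to 1.22 without fat M2, and was -0.69 with both libraries left out. Hectd3 was 0.30 with upper quartile factors. The cause of these turns was not tested. Depth limits genes with a few counts in 1 tissue, whose ratios have wide intervals.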
